A study of Drosophila melanogaster with 3 samples.

Results

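The RNAs described here were small RNAs of Drosophila melanogaster ovaries that matched the middle of the reading frame of the retroelement Penelope. A sequence belonged to the set when its lowest listed start on the authors' Penelope sequence, counted from 1, was 1501 to 2200, on either strand. The rule used the position only and no read count. It gave 229 of 970 distinct sequences in strain A1a, 371 of 1800 in strain A2d and 120 of 474 in strain A2h, and 601 of 2670 distinct sequences over the 3 lists. Each strain had 1 library, made from RNA of the ovaries of flies aged 3 to 5 days and kept at 25 degrees, after size selection of 23 to 29 nt. The submitters chose strains in which Northern blots had detected Penelope piRNAs. The labels give no genotype beyond the strain names, and no strain without Penelope served as a control. With 1 library per strain there was no replicate check and no test between strains.

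piRNAs are small RNAs of the animal gonad that bind Piwi proteins and lead them to transposon transcripts. In the fly germline, antisense piRNAs with uridine at base 1 guide the slicing of sense transcripts. The cut leaves a new 5′ end whose first 10 nt are complementary to those of the guide, so that the new piRNA has adenine at base 10. This cycle is called ping-pong. A second route, phased biogenesis, cuts a precursor step by step so that the end of one piRNA lies next to the start of the following one, often before a uridine. Penelope was described in Drosophila virilis, whose hybrid dysgenesis is linked to movement of this element. Its protein combines a reverse transcriptase with an endonuclease of the GIY-YIG type.

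The window of 700 nt made up 20.6% of the element as rebuilt from the listed reads, which reached position 3399. It lay wholly inside the longest open reading frame, positions 617 to 3190, and covered codons 295 to 528 of 857. It ended before the right terminal repeat, taken to begin at 2784, the lowest later start of any sequence listed at several places. Every sequence of the set matched at a single place. All coordinates are on the element, and where its copies lie in the host genome was not analysed here. The plus strand of the window held 41.3% A, 18.1% C, 17.7% G and 22.9% T. Reads of all 3 libraries together covered each of the 700 positions, while 30, 10 and 54 positions had no read of the set in A1a, A2d and A2h.

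The following sequences had the most reads within a library or among the sequences listed in every strain. A printed sequence can therefore have fewer reads in a library than a sequence left out. The printed sequences show the strand, the starting base and the shared ends that the results turn on. They are written 5′ to 3′ with T for U, as listed by the authors, and capitals mark bases 1 and 10.
antisense 1734 to 1759: TattggtctCagtggagttccttcct
antisense 1735 to 1759: TattggtctCagtggagttccttcc
antisense 2196 to 2221: TacatatttGgtcaagagtcttggtt
antisense 1912 to 1936: TaaggatacTacgtcaaaagatact
antisense 1683 to 1709: TcctcggagGtaccgctgttgttgtag
antisense 1693 to 1717: TccatatatCctcggaggtaccgct
antisense 1758 to 1785: TaagatggaGatcctatggaagaacata
antisense 1889 to 1915: TactaatgtTtcctcttctctaatctg
sense 1698 to 1724: TacctccgaGgatatatggactaccaa
sense 1675 to 1701: TaagatgacTacaacaacagcggtacc
sense 1963 to 1990: ActtgacacAataagacaaaaatggacc

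The antisense RNA at 1734 to 1759 led the set with 19 A1a reads, 37 A2d reads and 5 A2h reads. Its shorter form at 1735 to 1759 was seen with 9 A1a reads and 4 A2d reads, and with none in A2h. The antisense RNA at 2196 to 2221 was the most abundant in A2h with 6 reads, beside 3 in A1a and 6 in A2d. Of the 8 antisense RNAs printed, 6 were listed in all 3 strains, most of them at counts of a few reads. Presence in all 3 lists was among the criteria for printing, so this number says nothing about the set. Over the whole set, 20 of 601 distinct sequences were in all 3 lists.

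The antisense RNA at 1912 to 1936 was read 5 times in A1a, 2 in A2d and 2 in A2h. The RNA at 1683 to 1709 was read 3 times in A1a, 4 in A2d and 5 in A2h, and the RNA at 1693 to 1717 had 1, 4 and 4 in the same order. The RNA at 1758 to 1785 had 1 read in A1a, 1 in A2d and 5 in A2h. The strain with the most reads thus differed from RNA to RNA.

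The antisense RNA at 1889 to 1915 was read 2 times in A1a and 8 times in A2d, and not in A2h. The sense RNAs followed the same split. At 1698 to 1724 there were 5 reads in A1a and 1 in A2d, at 1675 to 1701 there were 2 and 8, and at 1963 to 1990 there were 4 and 10. None of these 3 sense RNAs was listed in A2h. The sense RNAs at 1675 and 1698 began with U, whereas the RNA at 1963 began with A and also had A at base 10.

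The set held 322 of the 1777 reads listed for A1a (18.1%, interval 16.4–19.99%), 572 of the 3870 for A2d (14.8%, 13.7–15.9%) and 160 of the 748 for A2h (21.4%, 18.5–24.5%). Intervals after shares are exact (Clopper-Pearson) 95% binomial intervals. PCR amplified the reads, which carry no molecular identifiers, so the intervals cover counting error only. The interval of A2d lay below those of A1a and A2h, which overlapped. By distinct sequences the shares were 23.6% (20.97–26.4%), 20.6% (18.8–22.6%) and 25.3% (21.5–29.5%), and all 3 intervals overlapped. Sequences seen once made up 79.9% of the set in A1a, 77.9% in A2d and 81.7% in A2h. The read totals are those of Penelope matches, so depth and the abundance of Penelope piRNAs cannot be told apart.

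Both strands of the window gave piRNAs in A1a and A2d, and in A2h nearly all came from the antisense strand. In A1a 180 of 322 reads were antisense (55.9%, 50.3–61.4%), in A2d 308 of 572 (53.8%, 49.7–58.0%), and in A2h 158 of 160 (98.8%, 95.6–99.8%). In the rest of the lists the antisense share was 57.4% (54.8–59.9%) in A1a, 61.8% (60.1–63.5%) in A2d and 92.7% (90.3–94.7%) in A2h. The intervals did not overlap in A2d, where the window was lower, nor in A2h, where it was higher, and they overlapped in A1a. With each distinct sequence counted once the window and the rest also overlapped in A2d, at 53.4% (48.1–58.5%) and 58.6% (56.0–61.2%). In A2h they stayed apart, at 98.3% (94.1–99.8%) and 88.7% (84.9–91.8%). Without the strongest antisense end of the window, at 1759, left out after the data had been seen, its antisense share was 50.2% in A1a and 49.0% in A2d.

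The 2 sense reads of A2h lay at 1786 to 1814, an exact match, and at 1963 to 1989, a match with a mismatch. The sense 5′ end at 1963 was also among the strongest of the other strains, with 7 reads in A1a and 14 in A2d. No sense read of the set in A2h covered 644 of the 700 positions, whereas 83 positions lacked such reads in A1a and 86 in A2d. The antisense strand was covered in A2h to a similar extent as in A1a: 91 positions had no antisense read of the set in A2h, 93 in A1a and 36 in A2d.

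The strand balance of the window lay between those of its neighbours on the element. In reads that started at 1201 to 1500 the antisense share was higher, with 82.7% (77.1–87.5%) in A1a, 77.9% (73.7–81.6%) in A2d and 100% (98.8–100%) in A2h. In reads that started after 2200 and before the right repeat it was lower, with 39.1% (33.8–44.7%), 35.7% (32.2–39.2%) and 85.0% (75.3–92.0%). The intervals of the window overlapped neither neighbour in A1a and A2d. With each sequence counted once, the A1a window, at 52.4% (45.7–59.0%), overlapped the downstream neighbour, at 47.0% (39.6–54.5%). In A2h the interval overlapped that of the upstream neighbour and lay above that of the downstream one. A border of the window fell within a change of strand in A1a and A2d. Between starts 2181 and 2200 there were 14 antisense of 15 reads in A1a and 24 of 27 in A2d, and between 2201 and 2220 there were 0 of 7 and 6 of 23. Most antisense reads inside this border shared a single 5′ end in both strains. In A2h all 11 reads inside the border and the 1 read outside it were antisense.

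Within the window, bins of 100 nt showed where each strand was densest. Antisense reads peaked at starts 1701 to 1800 in A1a (54 reads, 30%) and A2d (82 reads, 26.6%). In A2h the densest antisense bins were 1601 to 1700 (36 reads, 22.8%) and 1901 to 2000 (32 reads, 20.3%), with 28 reads (17.7%) at 1701 to 1800. Much of the peak of A1a and A2d was the end at 1759, with 37 and 54 of these reads. By distinct sequences, the densest antisense bin of A2d was 1601 to 1700, with 47 sequences against 32 at 1701 to 1800. In A1a 3 neighbouring bins held 22, 23 and 23 sequences, and in A2h the bins at 1601 and 1901 held 24 and 25. Sense reads were most numerous at 1901 to 2000 in A2d (64 reads, 24.2%). In A1a that bin and 1801 to 1900 held 26 sense reads each.

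Most antisense RNAs of the window began with U in all 3 strains, at shares whose intervals overlapped. The share was 80.0% (73.4–85.6%) in A1a, 83.1% (78.5–87.1%) in A2d and 81.0% (74.0–86.8%) in A2h, against 36.5%, 38.0% and 35.5% U elsewhere in those reads, bases 1 and 10 excepted. Sense RNAs began with U in 59.9% (51.3–68.0%) of reads in A1a and 57.2% (51.0–63.2%) in A2d, against 19.5% and 18.7% elsewhere in them. The bias to U at base 1 was therefore present on both strands, at a lower share on the sense strand, where U was also scarcer. Over the rest of the A1a list the antisense share was 71.9% (68.7–74.9%), an interval that overlapped that of the window. The values of the window and the rest overlapped in A2d and A2h also.

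Over reads, adenine at base 10 was above the A content of the reads on the sense strand in A2d and A1a, whose intervals overlapped. Base 10 was A in 53.4% (47.2–59.5%) of sense reads in A2d against 39.99% A elsewhere, and in 47.9% (39.4–56.4%) in A1a against 38.5% elsewhere, an interval that began just above the background. With each A1a sequence counted once its interval, 37.2–56.6%, included that background, as it did with exact matches. Of the 2 sense reads in A2h, 1 had A at base 10. In the rest of the list the sense share was 59.4% (55.4–63.2%) in A1a, whose interval overlapped that of the window by a small margin, and 52.3% (49.5–55.1%) in A2d. Both U at base 1 and A at base 10 were found in 28.2% (20.9–36.3%) of the window's sense reads in A1a and 27.3% (22.0–33.1%) in A2d.

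On the antisense strand of the window the interval for A at base 10 included the A content of the reads in all 3 strains. The share was 16.1% (11.1–22.3%) in A1a, 18.2% (14.0–23.0%) in A2d and 25.3% (18.7–32.8%) in A2h, against backgrounds of 21.3%, 20.5% and 22.5%. In the rest of the lists it was 32.0% (28.8–35.3%) in A1a, 27.5% (25.6–29.5%) in A2d and 22.4% (18.95–26.1%) in A2h. Over reads, the intervals of window and rest did not overlap in A1a and A2d, where the window was lower, and overlapped in A2h. The difference did not hold with each distinct sequence counted once. The window then had 21.7% (14.7–30.1%) in A1a and 22.2% (16.6–28.7%) in A2d, against 25.5% (21.4–29.8%) and 21.5% (18.7–24.4%) in the rest, so that the order turned in A2d.

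The RNAs of the window averaged 25.7 ± 1.45 nt in A1a (SD over 322 reads), 26.1 ± 1.45 nt in A2d (SD over 572 reads) and 26.03 ± 1.48 nt in A2h (SD over 160 reads). The most frequent length was 25 nt in A1a (30.7%, 25.7–36.1%) and 26 nt in A2d (27.3%, 23.7–31.1%) and in A2h (28.8%, 21.9–36.4%). The 25 nt share of A2d was 19.1% (15.9–22.5%), below the interval of A1a. The 95% intervals of the means over reads, by the normal approximation, were 25.56–25.88 nt in A1a, 25.94–26.18 nt in A2d and 25.8–26.3 nt in A2h. Those of A1a and A2d did not overlap, but with each sequence counted once, at 25.49–25.89 and 25.86–26.17 nt, they did.

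Over reads, sense RNAs of the window were longer than antisense RNAs in A2d. Their mean was 26.4 ± 1.56 nt, and that of the antisense RNAs 25.8 ± 1.30 nt (SDs over 264 and 308 reads). Reads of 27 nt or more made up 48.9% (42.7–55.1%) of the sense and 26.9% (22.1–32.3%) of the antisense reads. In A1a these shares were 33.8% (26.1–42.2%) and 22.8% (16.9–29.6%), with intervals that overlapped. For the rest of the A2d list they were 35.7% (33.0–38.4%) for sense and 34.1% (32.0–36.2%) for antisense reads. Over reads, the sense interval of the window in A2d lay above that of the rest of the list. With each sequence counted once, long sequences made up 44.5% (36.97–52.2%) of the sense and 30.3% (24.0–37.2%) of the antisense ones in the window, intervals that met, and 40.8% (36.8–44.9%) of the sense ones in the rest. Among the sense ends of A2d, the 14 reads at 1963 were all 27 to 29 nt long.

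A single antisense 5′ end, position 1759 in codon 381, held more reads than any other end of the window in each strain. The stretch around it is printed to show how the leading antisense ends lie together. It is the plus strand from 1681 to 1801, rebuilt from the reads with listed mismatches replaced by the authors' base, and capitals mark the antisense 5′ ends with 5 or more reads in a library, at 1709, 1717, 1720, 1759 and 1785.
plus strand 1681 to 1801: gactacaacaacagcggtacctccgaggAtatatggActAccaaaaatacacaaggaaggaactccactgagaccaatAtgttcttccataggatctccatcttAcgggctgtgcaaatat

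The end at 1759 had 37 reads in A1a (20.6% of antisense reads, 14.9–27.2%), 54 in A2d (17.5%, 13.5–22.2%) and 9 in A2h (5.70%, 2.64–10.5%). The interval of A2h lay below the others. In A1a its reads fell into 10 distinct sequences, 4 of them exact matches with 30 of the 37 reads, and in A2d into 9 sequences, 5 of them exact with 50 of the 54 reads. A2h had 5 sequences, 3 of them exact with 7 of the 9 reads. Their lengths ran from 24 to 28 nt over the 3 strains, so the 5′ end was fixed while the 3′ end varied.

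No sense read stood at the position that a 10 nt partner of this end would occupy, 1750, in any of the 3 libraries. Sense reads at any overlap of 1 to 20 nt with it numbered 1 in A1a, 3 in A2d and 0 in A2h. The strongest antisense end of the window thus had no ping-pong partner at the depth of these lists.

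Some of the other strong antisense ends had no reads in A2h, and others were shared by all 3 strains. The end at 2221 was read 11 times in A1a, 14 in A2d and 8 in A2h. The end at 1865 had 12 in A1a and 9 in A2d, and the end at 1915 had 2 and 14, with no read in A2h at either. The ends at 1709 and 1717, which all 3 strains shared, had 3 and 3 reads in A1a, 6 and 8 in A2d and 7 each in A2h. The end at 1785 was read 2 times in A1a, 3 in A2d and 7 in A2h, that is 4.43% (1.8–8.92%) of the antisense reads of A2h. Every end capitalised in the printed stretch began an RNA with U, and the end at 1865 began RNAs with A.

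The 3 strongest antisense ends of A1a held 33.3% (26.5–40.7%) of its antisense reads, against 26.6% (21.8–31.9%) in A2d and 15.2% (9.98–21.8%) in A2h. The interval of A2h lay below that of A1a and, by a very small margin, below that of A2d. This share rested on repeated sequences: with each distinct sequence counted once it was 18.3% (11.9–26.4%) in A1a, 10.6% (6.69–15.8%) in A2d and 11.02% (5.998–18.1%) in A2h, which no longer separated the strains. Antisense reads began at 78 positions in A1a, 119 in A2d and 86 in A2h, with a median distance between neighbouring ends of 4, 3 and 4 nt.

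No sense end held as many reads as the antisense end at 1759. The strongest were 1581 with 7 reads in A1a and 16 in A2d, 1963 with 7 and 14, and 1698 with 7 and 6. The end at 2011 had 5 and 10 reads and the end at 1675 had 2 and 10. The 3 strongest held 14.8% (9.39–21.7%) of sense reads in A1a, where 1581, 1698 and 1963 tied, and 15.2% (11.1–20.1%) in A2d. In both libraries these shares were below the antisense shares, with intervals that did not overlap, but the difference rested on the antisense end at 1759. Without it the 3 strongest antisense ends held 20.3% (14.0–27.8%) in A1a, an interval that overlapped the sense one, and 14.6% (10.5–19.5%) in A2d, below the sense share.

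Sense and antisense reads overlapping by 10 nt at their 5′ ends, the ping-pong arrangement, were in excess in A1a and A2d. A2h, with 2 sense reads in the window, had no pair at any overlap from 1 to 20 nt. A1a had 125 read pairs at 10 nt, against a mean of 39 at the remaining overlaps between 1 and 20 nt, a ratio of 3.21. A single site gave 72 of these 125 pairs, so the excess of A1a rested largely on it. The 10 nt pairs of the other sites were fewer than the pairs at 18 nt (63) or 20 nt (112), which may include reads of that site. The ratio without that site was not computed. The next most frequent overlap in A1a was 20 nt, with 112 pairs. A2d had 361 pairs at 10 nt, 2.83 times the mean of 128, and its next was again 20 nt, with 242. Without the antisense end at 1759 the 20 nt overlap of A1a held 75 pairs, and the ratios at 10 nt were 3.37 in A1a and 3.03 in A2d. Outside the window the ratio at 10 nt was 4.61 in A1a, 3.74 in A2d and 0.633 in A2h. The A2h value rested on 2 pairs against a mean of 3.16, with 43 sense reads.

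The excess in A1a shrank without the mismatched reads. With exact matches only, A1a had 61 pairs at 10 nt, 1.96 times the mean of 31.1, and the 20 nt overlap was more frequent with 86 pairs. In A2d the 10 nt overlap stayed the most frequent with exact matches, with 224 pairs against 179 at 16 nt, at 2.44 times the mean.

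Pairs with the highest product of reads are printed to show what a pair looks like. Capitals mark the overlapping 10 nt, which are complementary within each pair.
A1a sense 1856 to 1880: GCGGTAGATTttaaagacagagtct
A1a antisense 1842 to 1865: AATCTACCGCgttcttgatgttgt
A1a sense 1701 to 1725: CTCCGAGGATatatggactaccaaa
A1a antisense 1686 to 1710: ATCCTCGGAGgtaccgctgttgttg
A2d sense 1906 to 1934: AACATTAGTAtcttttgacgtagtatcct
A2d antisense 1889 to 1915: TACTAATGTTtcctcttctctaatctg
A2d sense 1856 to 1882: GCGGTAGATTttaaagacagagtcaac
A2d antisense 1839 to 1865: AATCTACCGCgttcttgatgttgtacc

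In A1a a single site made most of the pairs. The sense end at 1856 with 6 reads and the antisense end at 1865 with 12 gave 72 of the 125 read pairs (57.6%). In A2d the same site had 6 sense and 9 antisense reads and gave 54 of 361. The antisense RNAs there began with A and the sense RNAs with G, so that this leading site of A1a lacked U at base 1 on both strands. Of its 6 sense reads in A1a, 4 carried a mismatch, A1880T (the authors' base, then the position on the plus strand, then the read's base), as their last base.

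The leading site of A2d had the textbook arrangement of an antisense RNA with U at base 1 and a sense RNA with A at base 10. Its sense end at 1906 had 7 reads and its antisense end at 1915 had 14, which gave 98 of the 361 pairs (27.1%). In A1a the same site had 3 sense and 2 antisense reads. After it came the site at 1856 and 1865 with its 54 pairs, then sense 2011 with antisense 2020 (50 pairs), sense 1581 with antisense 1590 (48 pairs) and sense 1700 with antisense 1709 (30 pairs). Pairs came from 15 sites in A1a and 24 in A2d, of which 10 were the same.

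Across all read pairs of A1a, 26 had U at base 1 of the antisense RNA alone, 0 of the sense RNA alone, 21 of both and 78 of neither. In A2d the numbers were 167, 11, 124 and 59. In A2d the U therefore stood more often on the antisense than on the sense partner, and in A1a the pairs with U on neither were the most numerous.

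In A1a 38 of 180 antisense reads had a sense partner at 10 nt (21.1%, 15.4–27.8%), in A2d 91 of 308 (29.5%, 24.5–35.0%), and in A2h 0 of 158 (interval 0–2.31%). The 3 counts that a count of 0 was taken to allow would be 1.90% of these reads. The other overlaps averaged 12.5% in A1a and 20.7% in A2d, and the highest was 42.2% at 20 nt in A1a and 39.9% at 18 nt in A2d. By this measure, which counts a read once however many partners it has, 10 nt stood above the mean and was not the highest overlap. In A1a the 37 antisense reads at 1759 overlapped by 20 nt with a single sense read, at 1740. In A2d the 54 reads there met single sense reads at 1741, 1742 and 1744. Without the reads at 1759, 10 nt was the highest overlap of A2d, at 35.8% (29.9–42.1%) against at most 31.9%, and in A1a, at 26.6% (19.5–34.6%), it stayed below the 27.3% at 17 nt. The A2h list held 2 sense reads in the window, so partners could hardly be seen there.

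Sense reads with an antisense partner at 10 nt numbered 38 of 142 in A1a (26.8%, 19.7–34.8%) and 86 of 264 in A2d (32.6%, 26.96–38.6%). Outside the window the share was 15.8% (13.0–18.9%) in A1a and 18.7% (16.6–21.01%) in A2d, with intervals below those of the window. With each sequence counted once the intervals overlapped, at 25.7% (17.8–34.9%) in the window and 19.4% (15.2–24.3%) in the rest in A1a, and 32.9% (26.0–40.5%) and 23.9% (20.5–27.5%) in A2d. The antisense partner shares overlapped over reads already, since the rest had 18.6% (15.98–21.4%) in A1a and 27.1% (25.2–29.1%) in A2d. In the upstream neighbour, starts 1201 to 1500, the sense partner share of A2d was 39.4% (29.7–49.7%), an interval that overlapped that of the window. In A1a that neighbour had a partner for 5 of 38 sense reads. Downstream of the window, before the right repeat, 42 of 196 sense reads in A1a and 114 of 471 in A2d had a partner. The mean over the other overlaps was also higher in the window than in the rest, 14.4% against 9.54% in A1a and 21.6% against 17.0% in A2d. These shares depend on how densely the opposite strand is covered.

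Base 10 of a paired sense read lies opposite base 1 of its partner, so A there depends on U in the partner. Its A share is therefore not given as a result. It need not equal the U share, since the reads per end differ between the strands. Antisense reads with a partner had U at base 1 in 60.5% (43.4–76.0%) in A1a, where the site at 1865 begins with A, against 85.2% (78.3–90.6%) of those without. In A2d the shares were 82.4% (73.0–89.6%) with and 83.4% (77.8–88.1%) without a partner.

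Ends of successive reads on 1 strand were compared for the head-to-tail arrangement of phased piRNAs, counting at each distance from 1 to 20 nt the smaller of the reads that end and the reads that begin. On the sense strand a distance of 1 nt, where a read begins right after another ends, was the most frequent of the 20 distances in both libraries. It scored 20 in A1a, 2.41 times the mean of 8.32 over the other distances, and 32 in A2d, 1.79 times the mean of 17.9. The strongest junction was the same in both strains, from sense reads ending at 1701 to sense reads beginning at 1702, with a score of 4. Distances between sense 5′ ends were also scored, from 1 to 40 nt, by the smaller of their reads. The highest scores were at 2, 4 and 19 nt in A1a and at 2, 1 and 3 nt in A2d.

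On the antisense strand a distance of 1 nt did not stand out. It scored 13 against a mean of 10.7 in A1a, 33 against 28.5 in A2d and 12 against 9.95 in A2h, ratios of 1.21, 1.16 and 1.21, and ranked 6, 5 and 3 among the 20 distances. In the rest of the lists the antisense ratios were 1.64 in A1a, 1.20 in A2d and 1.67 in A2h, and the sense ratios were 1.79 in A1a and 1.32 in A2d. These scores describe single libraries, and their differences were not tested.

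The base that followed the 3′ end of a read on the element was often U on both strands. On the antisense strand in A1a it was U for 61.1% (53.6–68.3%) of reads, against 60.7% (55.0–66.2%) in A2d and 70.3% (62.5–77.3%) in A2h. U made up 36.5%, 38.0% and 35.5% of the inner bases and 41.1%, 43.5% and 36.7% of the last bases of these reads. The share was above both in all 3 strains. With each distinct sequence counted once it was 52.5% (43.2–61.7%), 57.1% (49.9–64.1%) and 69.5% (60.3–77.6%). On the sense strand it was 38.7% (30.7–47.3%) in A1a and 41.3% (35.3–47.5%) in A2d, against 19.5% and 18.7% U inside the reads. The rest of the lists had 56.0% (52.5–59.4%) in A1a, 52.1% (49.9–54.3%) in A2d and 71.9% (67.9–75.6%) in A2h on the antisense strand. The intervals of window and rest overlapped in A1a and A2h but not in A2d, and in A2d they overlapped with each sequence counted once, since the rest then had 53.7% (50.3–57.1%).

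Part of the set was shared between strains as identical sequences. Sharing of sequences and of 5′ ends was not computed for the rest of the lists. Whether the window differs from the rest in this was therefore not tested. A1a and A2d had 77 in common, 36 sense and 41 antisense, which were 33.6% of the sequences of A1a and 20.8% of those of A2d and held 48.1% and 39.2% of their reads. A1a and A2h had 26 in common, 11.4% of the sequences of A1a and 21.7% of those of A2h. A2d and A2h had 36, which were 9.70% and 30%. All sequences shared with A2h were antisense, as were 118 of the 120 A2h sequences of the window. All 3 strains had 20 in common, with 17.7% of the reads of A1a, 13.8% of A2d and 27.5% of A2h.

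Identical sequences also share their 5′ end, so shared ends held at least the reads of shared sequences by construction. A1a and A2d shared 43 sense ends, with 74.6% of the sense reads of A1a and 65.5% of those of A2d, and 45 antisense ends, with 77.2% and 64.9% of the antisense reads. A2h shared 33 of its 86 antisense ends with A1a (53.8% of its antisense reads) and 38 with A2d (62.7%). The 3 strains had 27 antisense ends in common, with 55.0% of the antisense reads of A1a, 46.1% of A2d and 49.4% of A2h. On the sense strand A2h shared 1 end, at 1963, with each of the other strains.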

How the data were processed

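Raw read counts per distinct sequence were deposited by the authors in 1 list per strain. Per the labels' protocols, small RNAs of 23 to 29 nt were selected on a gel, ligated to adapters and amplified by PCR. Lines hold a sequence with its count, orientation, start, end and mismatches on Penelope, per the file headers. Trimming, aligner and Penelope accession were "not given in the sources used here". Sequences of 23 to 30 nt with up to 2 mismatches were listed. The gel selection leaves out shorter RNAs such as siRNAs.

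Each sequence was counted once per list at its lowest start, and starts were converted to count from 1. Listed lengths, base flags, spans and mismatch bases differed from the sequences on 0 lines. Overlap pairs are the products of the reads of sense and antisense 5′ ends. Overlap and spacing measures were tested on simulated data. Since each strain had 1 library, values are given with exact 95% binomial intervals and no p-value. Named sequences were the 4 with most reads per library, the 5 with most reads among those in all 3 lists, the 3 strongest ends per strand and library and the 2 strongest pairs per library. The strongest pairs and ends were named beyond this where another strain's value stood beside them. The members and lists were chosen with earlier results of these data known. Alternatives were each sequence counted once, exact matches, sequences of 2 or more reads, omission of the most abundant member and a narrower window. Omission of the leading antisense end was added after seeing the data. Python 3.11.15, pandas 2.3.3, NumPy 2.4.6 and SciPy 1.17.1 were used.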

Additional observations from a re-analysis of the deposited data

How the results depend on the processing

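Of 137 recomputed values, 108 lay inside the counting interval of the main value (for the overlap ratio, closer than 1.5 times), and 29 did not. The 108 include values that could not move. Omission of the most abundant sequence or of the end at 1759, both antisense, left A at base 10 of sense reads unchanged. The 10 nt partner share of A2h stayed at 0, with 2 sense reads in the window. Omission of the antisense end at 1759, chosen after seeing the data, gave antisense shares of 50.2% in A1a and 49.0% in A2d. The 10 nt partner share of A2d was then 35.8%, and the window held 13.6% of the remaining listed Penelope reads of A2d. The 3 strongest antisense ends held 20.3% in A1a and 14.6% in A2d. With sequences of 2 or more reads, the antisense share of A2h was 100%, U at base 1 of antisense reads was 88.0% in A1a and 96.8% in A2h, and the overlap ratio was 5.69 in A1a and 5.06 in A2d. The 3 strongest ends then held 56.6%, 46.1% and 32.3% in A1a, A2d and A2h. In the same order, the window held 13.2%, 11.0% and 16.5% of the listed Penelope reads of such sequences. With each sequence counted once, the 3 strongest ends held 18.3% in A1a and 10.6% in A2d. The window then held 23.6%, 20.6% and 25.3% of the listed Penelope sequences. Without the most abundant sequence the 3 strongest ends held 25.5% in A1a and 16.6% in A2d. The narrower window, starts 1601 to 2100, held less of the listed Penelope reads by construction, at 14.1%, 11.4% and 16.7%. With exact matches the overlap ratio of A1a was 1.96, and A at base 10 of the A2h sense strand was 0% of 1 read. The overlap ratio of A2h had no value, since there were 0 pairs. The causes were not tested, beyond what the construction of a setting shows. No paired analysis was possible because each strain had 1 library. Depth limits A2h most, with 160 reads in the window and 2 sense reads.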

Other observations

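The bases at 2054 and 2194 differed from the authors' Penelope sequence in every covering read. With the authors' base first, G2054C was carried by 5 of 5 A1a reads, 9 of 9 A2d reads and 2 of 2 A2h reads, all antisense. T2194A was carried by 2 of 2, 3 of 3 and 1 of 1 reads in the same order. In A1a, A1541C was carried by the 1 covering read. Exact matches made up 81.4% (76.7–85.5%) of the window's A1a reads, 82.9% (79.5–85.9%) of its A2d reads and 91.3% (85.8–95.1%) of its A2h reads. A mismatch stood at the 3′ terminal base of 4.97% (2.87–7.94%) of reads in A1a and 2.97% (1.74–4.72%) in A2d, against 0.655% (0.486–0.862%) and 0.589% (0.468–0.731%) per inner base. In A2h the 3′ terminal share was 0.625% (0.0158–3.43%), against 0.416% per inner base. In the orientation of the read, G read as T was the most frequent mismatch, with 27 of 68 A1a mismatches, 46 of 106 A2d mismatches and 7 of 17 A2h mismatches.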
